A study of Mus musculus with 24 samples.

Results

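The small noncoding RNA genes described here were the genes with the biotype snoRNA, snRNA, misc_RNA or miRNA in the deposited whole-cell table, with 1 line kept per gene. There were 79 of them among 13534 genes: 30 snoRNA, 7 snRNA, 22 misc_RNA and 20 miRNA genes. Of the 79, 23 were also listed among the 11568 genes of the nuclear and cytoplasmic fractions, namely 1 snoRNA, 0 snRNA, 13 misc_RNA and 9 miRNA genes. Predicted genes with a Gm name made up 42 of the 79, and 8 had no symbol and are given by their Ensembl identifier.

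The cells were NIH3T3, an established line of mouse embryonic fibroblasts, reverse transfected at 10 nM with 1 of 2 mimics that both carry 3-cyanovinylcarbazole, a nucleoside that light can crosslink to an opposing strand. Cells of every group received fresh medium 24 h after transfection and were harvested 8 h later. The groups of whole-cell libraries were the miR-29b pulldown, the miR-29b input, the scrambled pulldown and the scrambled input, with 4 libraries each, and no group was left untransfected. A further 8 libraries came from nuclear or cytoplasmic RNA of pulldowns and inputs with either mimic, and none of these 8 was replicated. The scrambled mimic is the control for miR-29b, and each input is the control for its pulldown. The labels do not say whether the 4 libraries of a group had their own culture, and the p-values therefore rest on a spread that may be technical.

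Small nucleolar RNAs guide chemical changes on ribosomal RNA, with box C/D members guiding methylation and H/ACA members guiding pseudouridylation, and their relatives in Cajal bodies (Scarna genes) guide the same changes on spliceosomal RNAs. The misc_RNA class holds RNAs that act with proteins: 7SK RNA holds the elongation factor P-TEFb inactive, SRP RNA is the scaffold of the particle that sends secreted proteins to the endoplasmic reticulum, and the RNAs of RNase P and RNase MRP are catalytic subunits of enzymes that cut precursor tRNA and rRNA. A microRNA such as miR-29b pairs through its seed, the bases near its 5′ end, with messenger RNAs, and a miRNA gene gives a hairpin that is cut to the mature form.

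Mature sequences are shown for the mimic's natural counterpart and for the miRNA genes with a sequence that were also followed in the fractions, so that the seeds can be set side by side. They are from RefSeq (GRCm38.p6), 5′ to 3′, with the seed (bases 2 to 8) in capitals, and the mimic's own modified sequence was not used here.
mmu-miR-29b-3p: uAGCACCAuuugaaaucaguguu
mmu-miR-6236: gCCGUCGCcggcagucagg
mmu-miR-692: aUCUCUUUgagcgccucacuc
mmu-miR-8112: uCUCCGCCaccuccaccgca
The first is encoded at chr6:31063025-31063047 on the minus strand and at chr1:195037091-195037113 on the plus strand. Mature miR-6236 lies at chr9:110281353-110281371 (plus strand), miR-692 at chr17:6895259-6895279 (minus strand) and miR-8112 at chr6:71271745-71271764 (plus strand). In all, 7 of the 20 miRNA genes had mature sequences in this table, 10 sequences with 10 different seeds, and 0 of the Mir29 loci were among the members. The letters that pair with the miR-29b seed, UGGUGCU, searched on the transcribed strand only, were in 0 of 6 member hairpins and in 10 of 1005 mouse hairpins in the table (0.995%). The counts on a miRNA gene cannot tell mature miRNA or hairpin from longer RNA that crosses the locus.

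The listed counts per whole-cell library ran from 7409157 (scrambled pulldown replicate 1) to 55153996 (miR-29b input replicate 4), and the members held 0.209% to 1.49% of them. All 11 fibroblast markers were listed, summing to 5991 to 9206 CPM in the miR-29b input and 5960 to 6295 CPM in the scrambled input. They summed to 19821 to 28992 CPM in the miR-29b pulldown and 5224 to 5711 CPM in the scrambled pulldown. Of the other lists, with ranges over inputs and pulldowns together, 3 of 3 adipocyte markers were listed (73.1 to 259 CPM), 1 of 3 neural (8.18 to 21.1 CPM), 2 of 3 muscle (0.728 to 5.59 CPM), 1 of 3 leukocyte (0.555 to 4.07 CPM), 1 of 4 epithelial (0 to 3.27 CPM) and 0 of 3 endothelial markers. A column of the authors' deposited table named as a mean over lysed samples equals the mean of their enrichment scores of replicates 1 to 3 on 14047 of 14052 lines (within a relative 1e-06), and any other choice of replicates on 0 lines. Another column names an intact set, taken here to be replicate 4, which stood apart. In the miR-29b input, 28 of 30 snoRNA genes were higher in replicate 4 than in each of replicates 1 to 3. The same held for 24 of 30 in the scrambled input and 23 of 30 in the miR-29b pulldown, but for 2 of 30 in the scrambled pulldown. The share of all genes highest in replicate 4 was not computed, so these counts cannot be called particular to snoRNA genes. Many were also near the floor: 25 of 30 in the miR-29b input and 21 of 30 in the scrambled input had at most 5 counts in each of replicates 1 to 3. Results are therefore given over all 4 replicates and over replicates 1 to 3. These are bulk samples, in which fewer cells of a kind and less RNA per cell cannot be told apart.

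The summed level of each biotype shows this split. On the CPM scale (each count as a share of its library, scaled as counts per 1e+06 with TMM factors), the 30 snoRNA genes summed to 27.9, 12.5, 22.2 and 101 in miR-29b pulldown replicates 1 to 4, against 3.18, 3.63, 3.61 and 41.7 in their inputs. They summed to 126, 49.3, 54.5 and 68.3 in the scrambled pulldown, against 4.12, 2.65, 3.36 and 16.5 in its input. Both pulldowns were above their inputs replicate by replicate, and the snoRNA level in replicate 4 of each input was above that of every other input library of its group. Over replicates 1 to 3 the mean sum was 6.01 times the input with miR-29b and 22.7 times with the scrambled mimic; in replicate 4 it was 2.42 and 4.15 times. The misc_RNA sum over replicates 1 to 3 was 0.730 times its input in the miR-29b pulldown and 3.77 times in the scrambled pulldown, and the miRNA sum was 0.270 and 1.33 times. In replicate 4 the misc_RNA sum was 0.922 times its input with miR-29b and 0.935 times with the scrambled mimic, so the higher misc_RNA level of the scrambled pulldown was not seen there, and the miRNA sum was 0.226 and 1.18 times. Mir6236 carries much of the miRNA sum, and without it the ratios over replicates 1 to 3 were 0.421 with miR-29b and 2.72 with the scrambled mimic. A low sum with miR-29b was not particular to miRNA genes. The 254 genes of the biotype lincRNA (long intergenic noncoding RNA) summed to 0.277 times their input with miR-29b over replicates 1 to 3. With the scrambled mimic their sum was 1.04 times its input, and in replicate 4 the ratios were 0.172 and 0.570. The single listed gene of the biotype rRNA was also above input in both pulldowns, replicate by replicate. It was at 32.3, 9.46, 20.6 and 47.6 CPM in the miR-29b pulldown and 13.2, 6.96, 10.4 and 19.5 in its input. It was at 232, 47.3, 62.0 and 54.8 CPM in the scrambled pulldown and 13.8, 10.6, 10.4 and 8.42 in its input. Unlike the snoRNA sum, it was lowest in replicate 4 of the scrambled input. The part of RNA quality in these levels was not tested.

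**Figure D1:**
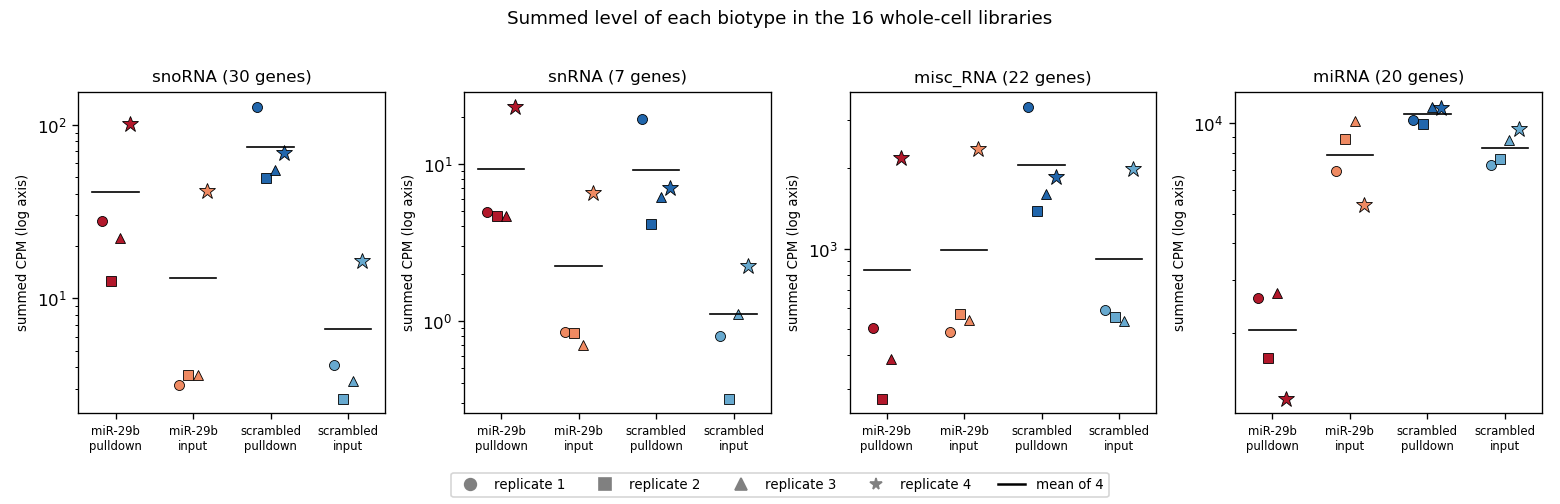
Summed CPM (log axis) of each biotype in the 16 whole-cell libraries, by group, with a symbol per replicate and a bar at the mean of 4. Replicate 4 (star) is high for snoRNA, snRNA and misc_RNA genes in both inputs and in the miR-29b pulldown; the miRNA sum is lowest in the miR-29b pulldown.

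Many members were higher in the scrambled pulldown than in its input. Over all 4 replicates, 16 of 30 snoRNA genes, 3 of 7 snRNA genes, 4 of 22 misc_RNA genes and 3 of 20 miRNA genes were higher in the scrambled pulldown, together 26 of 79, and 0 of 79 were lower (edgeR quasi-likelihood test, adjusted p under 0.05). Of all genes tested, 18.5% were higher and 17.4% lower. Over replicates 1 to 3, 46 of 79 members were higher (23 snoRNA, 4 snRNA, 15 misc_RNA and 4 miRNA genes) and 0 lower, beside 27.7% and 26.4% of all genes tested. Only 63 of the 79 were tested there. Member counts here and below are out of those listed, while the shares beside them are out of genes tested. DESeq2 called 32 higher and 0 lower over all replicates. Of the 79 members 68 were tested, and 40 of these would have been under the count filter in the input libraries alone. They were 27 of the 28 snoRNA, 5 of the 5 snRNA, 5 of the 21 misc_RNA and 3 of the 14 miRNA genes tested. These could be tested only because the pulldowns held them. With no filter 27 of 79 were higher, beside 17.4% of all 13534 genes, and 0 lower, beside 16.5%. How genes were selected for listing is not stated, so the list itself may hold a like selection. All 79 were detected in scrambled pulldown replicates 2, 3 and 4, but 71, 61, 69 and 75 in scrambled input replicates 1 to 4. At an unadjusted p under 0.05, 42 of the 68 members tested differed, beside 5816 of 12915 genes tested. All 4 pulldown libraries lay above all 4 inputs for 26 members and below them for 0, beside 21.3% and 19.6%. Without scrambled input replicate 1, 2 or 3 the count of higher members was 16, 15 and 14.

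Snora73b (ENSMUSG00000065353; chromosome 4, 132352322 to 132352526, GRCm38.p6; within Snhg3), an H/ACA snoRNA of the U17 family that takes part in rRNA cutting, was at 43.9, 6.41, 10.4 and 16.2 CPM in the scrambled pulldown, against 0.191, 0.0456, 0.155 and 1.11 CPM in its input. Every pulldown library was above every input library. The difference was 47.9-fold (log2 5.58 ± 1.33 SE, n = 4 each, edgeR adjusted p = 0.00408). In the miR-29b pulldown it was at 5.13, 1.49, 4.03 and 19.96 CPM, against 0.0848, 0.098, 0.134 and 5.02 CPM in the miR-29b input. Here replicate 4 of the input overlapped the pulldown, and the difference passed the test with replicates 1 to 3 (log2 4.99 ± 1.03, edgeR adjusted p = 0.000962) but not with all 4 (log2 2.41 ± 1.12, edgeR adjusted p = 0.0826).

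Scarna2 (ENSMUSG00000088185; chromosome 3, 108554342 to 108554402), a guide RNA of Cajal bodies, was at 1.66, 0.728, 1.39 and 1.80 CPM in the miR-29b pulldown, against 3.41, 8.58, 6.63 and 7.80 CPM in the scrambled pulldown. All 4 miR-29b libraries were below all 4 scrambled ones (log2 −2.26 ± 0.80 SE, edgeR adjusted p = 0.0308), though the call was lost without miR-29b pulldown replicate 1, 2 or 3 or scrambled pulldown replicate 2, 3 or 4 (edgeR adjusted p up to 0.0826). The scrambled pulldown was also above all 4 libraries of its input, at 0.0764, 0.137, 0.0775 and 0.771 CPM (log2 4.60 ± 0.92, edgeR adjusted p = 0.00131). Rnu3a (ENSMUSG00000065870; chromosome 10, 40258468 to 40258679), a gene of U3, the box C/D RNA needed to cut the rRNA precursor, had 161, 51, 110 and 170 counts in the scrambled pulldown, against 2, 5, 1 and 22 counts in its input (log2 4.89 ± 1.02, edgeR adjusted p = 0.00173). It was also the only snoRNA gene higher in the miR-29b pulldown over all 4 replicates, with 49, 26, 68 and 49 counts there, against 0, 3, 1 and 26 counts in the miR-29b input. Its groups did not overlap in CPM, and the call (log2 2.85 ± 0.98, edgeR adjusted p = 0.024) was lost without miR-29b input replicate 1, 2 or 3 (edgeR adjusted p up to 0.0709).

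Snora24, an H/ACA RNA of chromosome 3, had 25, 88, 80 and 108 counts in the scrambled pulldown and 2, 1, 0 and 0 in its input. In the miR-29b pulldown it had 27, 19, 50 and 165 counts, against 0, 0, 0 and 64 in the miR-29b input, so that replicate 4 held every input count. Scarna13, within Snhg10 on chromosome 12, was at 7.64, 3.63, 4.57 and 6.59 CPM in the scrambled pulldown and at 0.115, 0, 0.0516 and 0.494 CPM in its input (log2 4.98 ± 1.24, edgeR adjusted p = 0.0056). The box C/D RNA Snord104 (chromosome 11, 106500991 to 106501063) was present in the inputs at higher levels. It was at 4.13, 2.00, 3.83 and 11.9 CPM in the miR-29b pulldown and at 1.06, 0.980, 1.24 and 9.00 CPM in the miR-29b input, at 6.95, 4.07, 5.28 and 6.90 CPM in the scrambled pulldown and at 1.26, 1.00, 1.39 and 3.82 CPM in the scrambled input. Over replicates 1 to 3 it rose 3.06-fold over input with miR-29b (edgeR adjusted p = 0.000373) and 4.31-fold with the scrambled mimic (edgeR adjusted p = 8.35e-05), while neither passed over all 4 (edgeR adjusted p = 0.354 and 0.0936). Snord118 (U8, also needed to cut the rRNA precursor) did not pass over all 4 replicates in either pulldown against its input (edgeR adjusted p = 0.396 and 0.329). With replicates 1 to 3, 24 of the 30 snoRNA genes were tested. The only 1 of these that did not pass in the scrambled pulldown against its input was Gm24119 (log2 0.54, edgeR adjusted p = 0.544). As given above for all 4 replicates, snoRNA genes entered the test mostly through the pulldowns, so no share of snoRNA genes is read from this.

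Many snoRNAs lie in introns of other genes, so their counts were set beside those of the gene that holds them. The strand setting of the counting is not given in the sources used here, and reads of a snoRNA and of its host cannot be told apart where they overlap. For 13 snoRNA genes both the gene and a host were tested, with 14 hosts in all since Snora78 lies in both Rps2 and Snhg9. Most snoRNA genes tested had entered the test through the pulldowns, as given above, so the pairs are given as a description and no count over them is read. In the scrambled pulldown against its input 1 of the 14 hosts was higher and 4 lower. Snora33 was 19.8-fold higher in the scrambled pulldown (log2 4.30 ± 1.34, edgeR adjusted p = 0.0202), while its host Rps12, which encodes a ribosomal protein, did not pass (log2 −0.71 ± 0.49, edgeR adjusted p = 0.281). Snora23 and its host Ipo7, which encodes an import receptor, had close values: Ipo7 was 5.99-fold higher (edgeR adjusted p = 0.000476) and Snora23 did not pass (log2 2.19, edgeR adjusted p = 0.148).

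**Figure D2:**
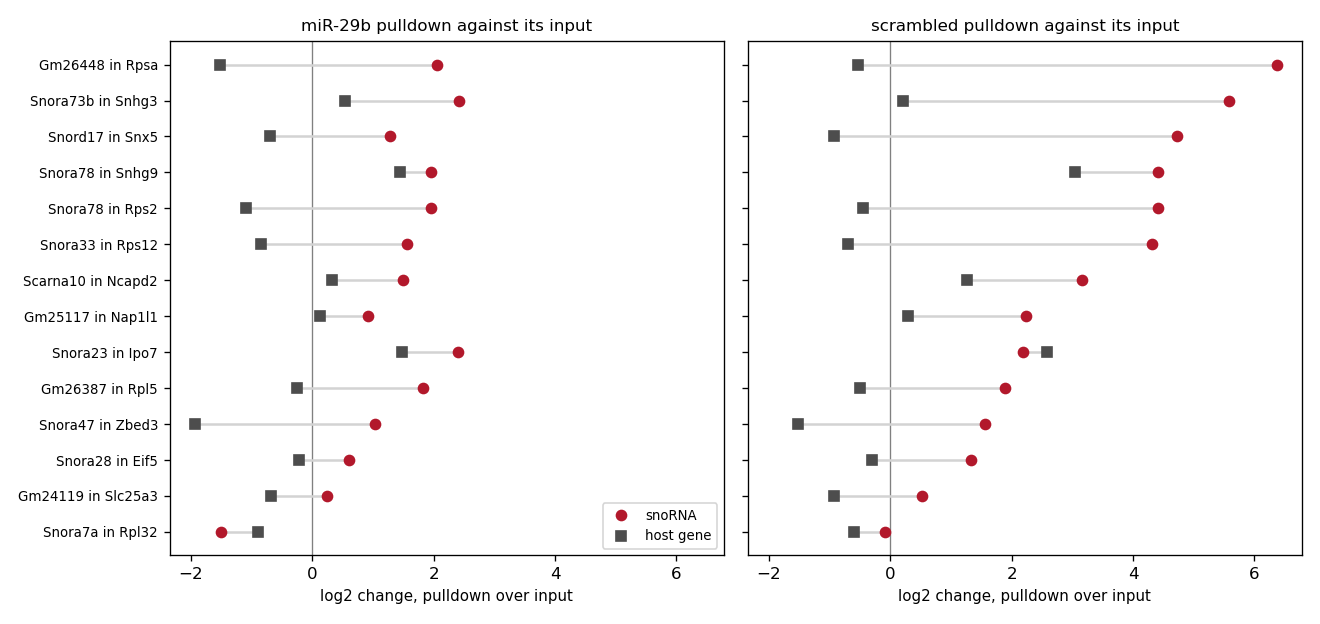
Log2 change of 13 snoRNA genes (circles) and their 14 host genes (squares) in the miR-29b pulldown (left) and the scrambled pulldown (right), each against its input, over all 4 replicates. In the right panel Snora33 is at 4.30 and its host Rps12 at −0.71, while Snora23 is at 2.19 and its host Ipo7 at 2.58; the snoRNA genes plotted are those that passed the count filter, mostly through the pulldowns.

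The miR-29b pulldown was next set against its own input. Over all 4 replicates 3 of 79 members were higher (Rnu3a and the snRNA genes Gm25177 and Gm22710) and 5 lower (all miRNA genes), beside 28.4% and 23.2% of all genes tested. Using replicates 1 to 3, 21 of 79 were higher, 18 of them snoRNA and 3 snRNA genes, and 4 were lower, beside 34.1% and 31.0%. The snoRNA and snRNA genes entered this test too mostly through the pulldowns, as given above. All 4 libraries of the miR-29b pulldown lay above all 4 inputs for 1 member and below them for 3, beside 24.3% and 18%. Same-numbered miR-29b pulldown and input libraries deviated together, and with the replicate number as a block 15 members were higher and 9 lower. Without miR-29b input replicate 4 the counts of higher members came to 28, and without replicate 3 of that input to 0; without replicate 1 or 2 of that input, or without miR-29b pulldown replicate 4, 1 member was higher.

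Set directly against the scrambled pulldown, 1 of 79 members was higher in the miR-29b pulldown and 17 were lower (2 snoRNA, 6 misc_RNA and 9 miRNA genes), beside 24.5% and 20.9% of all genes tested. Over replicates 1 to 3, 1 of the 63 members tested was higher and 47 lower (16 snoRNA, 4 snRNA, 17 misc_RNA and 10 miRNA genes), beside 29.5% and 29.5%. Without miR-29b pulldown replicate 4 alone the lower count was 28. All 4 miR-29b libraries lay above all 4 scrambled ones for 1 member and below them for 12, beside 22.8% and 21.1%. The question of which RNAs miR-29b recovers is asked by the pulldown over input change with miR-29b minus that with the scrambled mimic. By this mimic-specific measure 0 of 79 members were higher and 10 lower (4 misc_RNA and 6 miRNA genes), beside 17.0% and 9.21% of all genes tested. DESeq2 called 0 and 13. At an unadjusted p under 0.05 in edgeR, 20 of 68 members tested differed, beside 4783 of 12915 genes tested. With replicates 1 to 3 the edgeR counts past the threshold were 1 and 20, beside 24.4% and 19.1%, and without miR-29b pulldown replicate 4 alone the lower count was 21. It was 5 or 6 when replicate 1, 2 or 3 of the scrambled input, replicate 2 or 3 of the miR-29b pulldown, or replicate 4 of its input was left out. The 3 comparisons share libraries and are not independent of each other.

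**Figure D3:**
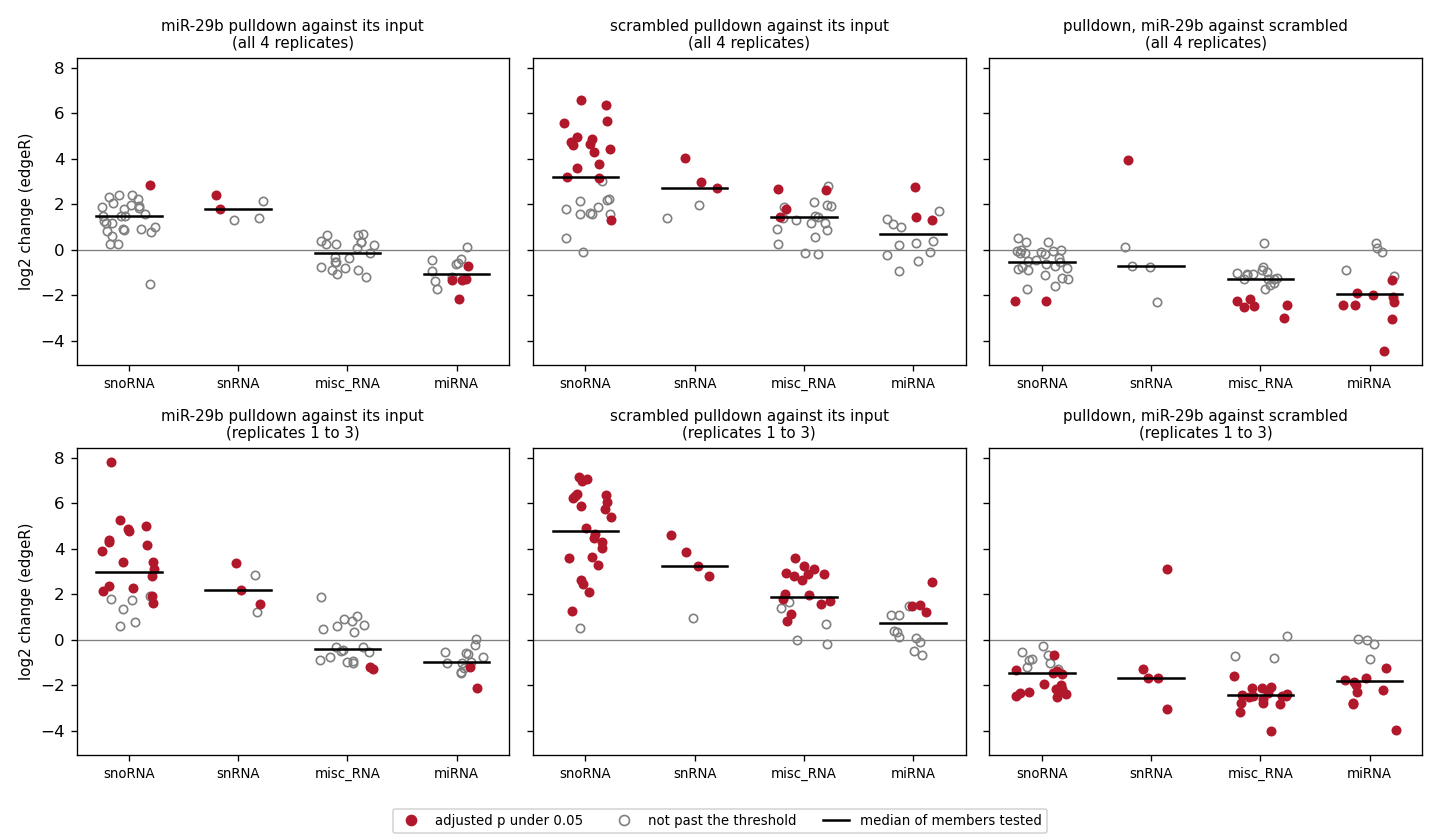
Log2 changes of the members tested, by biotype, in 3 comparisons over all 4 replicates (top) and replicates 1 to 3 (bottom). Filled points passed the test, open points did not, and bars mark medians of the members tested; Gm25177 is the single filled snRNA point above 0 in the right panels.

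The member higher in the miR-29b pulldown than in the scrambled pulldown was Gm25177 (ENSMUSG00000084583), listed as an snRNA gene in the deposited table and as a pseudogene in RefSeq. It lies at chromosome 17, 50916890 to 50917041 (GRCm38.p6), inside Tbc1d5, which encodes a regulator of membrane traffic. It had 48, 95, 122 and 419 counts in the miR-29b pulldown, against 4, 11, 7 and 14 in the scrambled pulldown. Every miR-29b library was above every scrambled one, in counts and in CPM (2.28, 3.46, 2.92 and 13.02 against 0.545, 0.373, 0.225 and 0.362). The difference was 15.3-fold (log2 3.94 ± 0.88 SE, n = 4 each, edgeR adjusted p = 0.0017) and passed without each library in turn (edgeR adjusted p at most 0.00829). With replicates 1 to 3 it was 8.60-fold (edgeR adjusted p = 1.79e-05).

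In the inputs Gm25177 had 4, 6, 11 and 133 counts in the miR-29b input and 4, 2, 9 and 1 counts in the scrambled input, so replicate 4 of the miR-29b input stood far above the other 7. Over its own input the miR-29b pulldown was 5.38-fold higher (edgeR adjusted p = 0.0155), a call lost without miR-29b input replicate 3 or miR-29b pulldown replicate 4 (edgeR adjusted p up to 0.087). The mimic-specific change was 2.04-fold and did not pass over all replicates (log2 1.03 ± 1.31, edgeR adjusted p = 0.61), and was 5.28-fold with replicates 1 to 3 (log2 2.40 ± 0.64, edgeR adjusted p = 0.00922). The surrounding gene Tbc1d5 had a log2 change of −0.26 ± 0.16 between the pulldowns over all 4 replicates (edgeR adjusted p = 0.198) and −0.44 ± 0.12 with replicates 1 to 3 (edgeR adjusted p = 0.00655). Among the other snRNA genes, Gm25939 (chromosome 1, 72255008 to 72255198, inside D230017M19Rik) was at 14.3, 0.577, 1.84 and 2.45 CPM in the scrambled pulldown and at 0.153, 0.0456, 0.336 and 0.524 CPM in its input. The groups did not overlap (16.3-fold, edgeR adjusted p = 0.00581), and replicate 1 of the pulldown was the highest.

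Rn7sk (ENSMUSG00000065037; chromosome 9, 78175302 to 78175633), which encodes 7SK RNA, had the highest level per kilobase of the 8 misc_RNA genes with a known length (1533 CPM per kilobase, mean of 16 libraries); the other 14 had no length here. It was at 222, 122, 173 and 1268 CPM in the miR-29b pulldown, against 135, 114, 131 and 1091 in the miR-29b input, and at 1340, 613, 763 and 871 in the scrambled pulldown, against 143, 123, 127 and 904 in the scrambled input. Replicate 4 was far above the other 3 libraries in every group but the scrambled pulldown, where it lay within their range. With replicates 1 to 3 Rn7sk was 6.99-fold higher in the scrambled pulldown than in its input (edgeR adjusted p = 9.46e-06) and 5.30-fold lower in the miR-29b pulldown than in the scrambled one (edgeR adjusted p = 1.1e-05). Neither passed over all 4 replicates (edgeR adjusted p = 0.227 and 0.388). The miR-29b pulldown against its input did not pass in either setting (log2 0.46 ± 0.26 with replicates 1 to 3, edgeR adjusted p = 0.142).

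The RNase MRP gene Rmrp (chromosome 4, 43492785 to 43493059) was at 58.0, 64.2, 65.1 and 69.2 CPM in the scrambled pulldown, against 12.4, 18.7, 17.5 and 46.1 CPM in its input. The groups did not overlap and the difference was 2.71-fold (edgeR adjusted p = 0.0409 over all 4, 9.91e-05 with replicates 1 to 3), but the call over all 4 held in 5 of 16 fits that each left out 1 library (edgeR adjusted p up to 0.146). In the miR-29b pulldown it was at 24.9, 12.7, 25.3 and 43.4 CPM, against 10.7, 20.2, 19.1 and 68.0 CPM in the miR-29b input, and these groups overlapped. Rpph1 (chromosome 14, 50807447 to 50807771), the RNA of RNase P, was at 96.9, 87.3, 92.9 and 515 CPM in the miR-29b pulldown, against 135, 289, 231 and 695 CPM in its input. With replicates 1 to 3 it was 2.32-fold lower with miR-29b (edgeR adjusted p = 0.0018) and 2.22-fold higher in the scrambled pulldown (650, 445 and 429 CPM) than in its input (168, 284 and 243 CPM; edgeR adjusted p = 0.00361). Over all 4 replicates neither passed (edgeR adjusted p = 0.306 and 0.51). Rprl3, an RNase P RNA-like gene that may share reads with Rpph1, had the same directions with replicates 1 to 3 (edgeR adjusted p = 0.00371 and 0.0377).

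The gene ENSMUSG00000099250, described in the deposited table as a metazoan signal recognition particle RNA, was at 77.9, 23.5, 43.3 and 85.2 CPM in the miR-29b pulldown, against 691, 123, 170 and 257 in the scrambled pulldown. Every miR-29b library was below every scrambled one. The difference was 5.39-fold (log2 −2.43 ± 0.56, edgeR adjusted p = 0.00226), and its mimic-specific change was log2 −2.37 ± 0.77 (edgeR adjusted p = 0.0317), which was lost when any 1 of 8 libraries was left out (edgeR adjusted p up to 0.102). ENSMUSG00000099021, with the same description, and the predicted genes Gm22179 and Gm24514 were also lower by the mimic-specific measure (log2 −2.07, −2.37 and −2.32), calls that held in 5, 8 and 4 of 16 fits that each left out 1 library (edgeR adjusted p up to 0.132, 0.0937 and 0.142). SRP, 7SK and U RNAs come from families of near-identical copies, and how the counting split shared reads is not given in the sources used here, so these genes are not separate observations. Vaultrc5, a vault RNA gene on chromosome 18, was at 2.52, 0.910, 2.01 and 7.30 CPM in the miR-29b pulldown and at 80.7, 1.19, 8.73 and 14.4 CPM in the scrambled pulldown, which overlapped (8.03-fold lower, edgeR adjusted p = 0.0193); the call was lost without scrambled pulldown replicate 1, miR-29b pulldown replicate 2 or miR-29b pulldown replicate 3 (edgeR adjusted p up to 0.21). The Y RNA genes Rny1 and Rny3, whose RNAs bind the Ro protein, did not pass in any of the 5 comparisons over all 4 replicates.

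**Figure D4:**
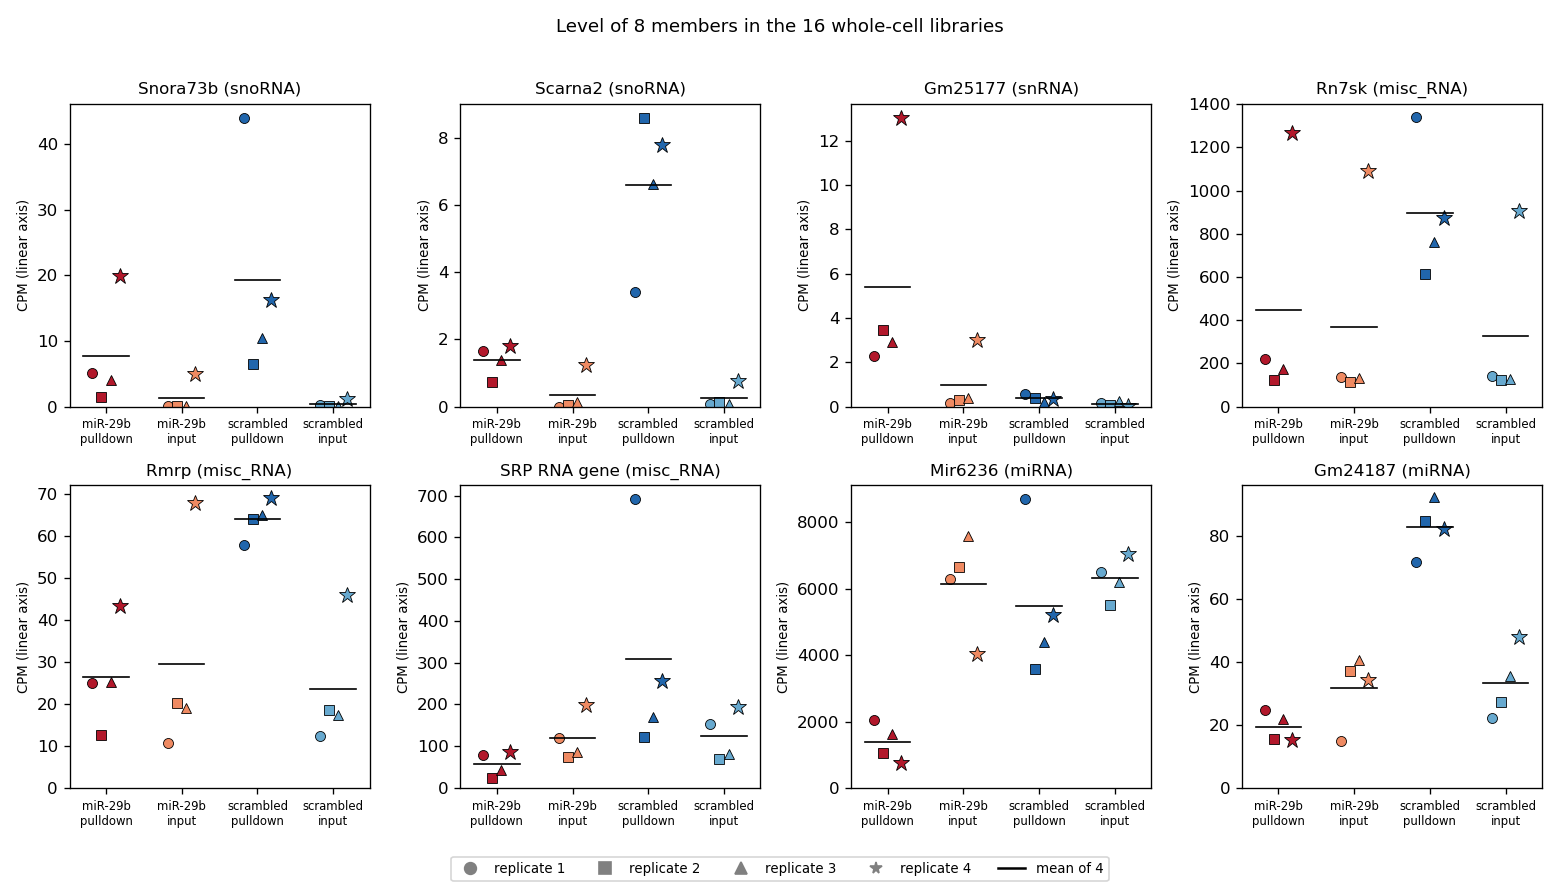
CPM (linear axes from 0) of 8 members in the 16 whole-cell libraries, with a symbol per replicate and a bar at the mean of 4. Scarna2 and Gm24187 are highest in the scrambled pulldown, Gm25177 in the miR-29b pulldown, and Mir6236 is lowest in the miR-29b pulldown; Rn7sk is high in replicate 4 (star) of both inputs.

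Of the 20 miRNA genes, 9 were lower in the miR-29b pulldown than in the scrambled pulldown, 5 were lower than in the miR-29b input and 6 were lower by the mimic-specific measure, beside 20.9%, 23.2% and 9.21% of all genes tested; 14 of the 20 were tested. The count of 5 was 2 under the authors' library totals or without miR-29b input replicate 3, and 3 without replicate 2 of any group, scrambled input replicate 3, or scrambled pulldown replicate 3 or 4. The calls of Gm23935 and Gm24187 in it were lost in 11 and 12 of 16 fits that each left out 1 library (edgeR adjusted p up to 0.151 and 0.16). Mir6236 (ENSMUSG00000098973; chromosome 9, 110281287 to 110281409) had the highest level per kilobase of the 41 members with a known length, 7 of them miRNA genes (39222 CPM per kilobase). It was at 2038, 1066, 1626 and 766 CPM in the miR-29b pulldown, against 6302, 6641, 7587 and 4047 CPM in its input, 8714, 3582, 4385 and 5195 CPM in the scrambled pulldown and 6503, 5498, 6195 and 7045 CPM in the scrambled input. The miR-29b pulldown was below every library of the other 3 groups. It was 4.47-fold below its input (log2 −2.16 ± 0.33, edgeR adjusted p = 6.07e-05), whereas the scrambled pulldown did not pass against its input (log2 −0.21 ± 0.32, edgeR adjusted p = 0.646). The mimic-specific change, which tests that difference, was log2 −1.95 ± 0.45 (edgeR adjusted p = 0.00468), and it was −1.99 ± 0.43 with replicates 1 to 3.

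Gm24187, a predicted miRNA gene, was at 24.8, 15.5, 22.0 and 15.4 CPM in the miR-29b pulldown, against 15.0, 37.1, 40.6 and 34.4 CPM in its input. In the scrambled pulldown it was at 71.7, 84.7, 92.2 and 82.3 CPM, above all 4 input libraries at 22.3, 27.3, 35.7 and 47.8 CPM (2.49-fold, edgeR adjusted p = 0.00239). Its mimic-specific change was log2 −2.02 ± 0.41 (edgeR adjusted p = 0.00169) and passed without each library in turn. Gm23935 was at 481, 477, 922 and 339 CPM in the miR-29b pulldown, against 1279, 5574, 6211 and 5342 CPM in the scrambled pulldown, with no overlap (8.30-fold lower, edgeR adjusted p = 0.000332). Its inputs, at 530, 1767, 2195 and 1060 CPM with miR-29b and 647, 1792, 2198 and 2141 CPM with the scrambled mimic, were lowest in replicate 1, as was its scrambled pulldown.

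Gm22953 had few counts: 9, 1, 6 and 1 in the miR-29b pulldown, 19, 5, 15 and 19 in its input, 3, 100, 130 and 192 in the scrambled pulldown and 17, 9, 17 and 15 in the scrambled input. The scrambled pulldown was high in 3 of 4 libraries, and replicate 1, at 0.409 CPM, lay within the range of the inputs. It had the lowest mimic-specific change of the members tested (log2 −4.48 ± 0.97, edgeR adjusted p = 0.00287). Gm24270 and Gm25911 also passed downward (log2 −2.35 ± 0.57 and −2.88 ± 0.97, edgeR adjusted p = 0.00647 and 0.0374). Mir692-1 (chromosome 17, 6895229 to 6895337) was at 5.41, 2.15, 3.26 and 2.14 CPM in the miR-29b pulldown, below all 4 libraries of its input at 8.14, 7.55, 6.15 and 9.04 CPM (2.40-fold, edgeR adjusted p = 0.0132). Its mimic-specific change did not pass (log2 −1.15 ± 0.55, edgeR adjusted p = 0.14), nor did that of Mir8112 (log2 0.32 ± 0.58, edgeR adjusted p = 0.727), whose level ran from 0.136 to 1.17 CPM over the 16 libraries.

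Between the inputs, which ask whether the mimic changed the level of these RNAs in the cells, 0 of 79 members were higher with miR-29b and 0 lower by edgeR, beside 0.0542% and 0.0% of all genes tested. DESeq2 also called 0 and 0. In edgeR 4 of 68 members tested had an unadjusted p under 0.05, beside 604 of 12915 genes tested. Libraries of the inputs did not overlap for 0 members in either direction, beside 2.6% and 2.18% of genes tested. The 4 were 3 snoRNA genes and 1 snRNA gene, among them Snora24 (log2 3.77 ± 1.52) and Gm25177 (log2 2.90 ± 0.92), whose counts in the miR-29b input stood mostly in replicate 4. Over replicates 1 to 3, 0 members were higher and 0 lower, beside 0.639% and 0.74%. There 0 members had an unadjusted p under 0.05, beside 1877 of 12834 genes tested.

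The messenger RNAs of proteins that bind these RNAs were counted beside them. By the mimic-specific measure, 0 of 5 box C/D protein genes were higher and 2 lower, and 0 of 9 H/ACA protein genes passed in either direction, beside 17.0% higher and 9.21% lower of all genes tested. Fbl, the methyltransferase of box C/D particles, had a log2 change of −1.18 ± 0.23. Among 8 genes of the 7SK, La and Ro particles 2 were higher and 1 lower: Ssb, which encodes the La protein that binds the 3′ end of new polymerase III transcripts, rose (log2 2.63 ± 0.41), Trove2, which encodes Ro, rose (log2 1.37 ± 0.31), and Larp7, which encodes the 7SK stabilising protein, fell (log2 −0.90 ± 0.26). For RNase P and MRP, 4 of 9 tested protein genes were higher and 0 lower, with Pop4 at log2 2.55 ± 0.26 and Rpp38 at 1.49 ± 0.30. For the signal recognition particle 1 of 6 was higher (Srp9, log2 0.95 ± 0.26) and 1 lower (Srp19, log2 −2.30 ± 0.26), and for spliceosomal proteins 1 of 25 was higher and 4 lower. The median log2 changes of these 6 lists were −0.60, −0.41, 0.27, 0.45, −0.28 and −0.15, beside −0.10 over all genes tested.

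The fractions gave the nuclear and cytoplasmic levels of 23 members, with 1 library per combination (5320421 to 20142591 listed counts) and so no test. Ratios are log2 of the nuclear over the cytoplasmic level after scaling, with a prior count of 5, and intervals on fold ratios are exact binomial at 95% and cover counting error only, since PCR copies are not independent molecules. Scarna10, the only snoRNA gene listed, had 715 nuclear and 12 cytoplasmic counts in the miR-29b input, and 814 and 19 in the scrambled input. Its nuclear level was 64.2 times the cytoplasmic one with miR-29b (interval 36.5 to 125) and 53.1 times with the scrambled mimic (33.8 to 88.7). Rmrp was 16.2 times (14.7 to 17.9) and 19.2 times (17.7 to 20.9) higher in the nucleus in the miR-29b and scrambled inputs. Rn7sk was 6.85 times (6.52 to 7.21) and 4.76 times (4.56 to 4.97) higher there. Neat1, a nuclear long noncoding RNA, had log2 ratios of 6.68 and 6.37 in the same pairs of libraries.

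Other misc_RNA genes lay on the cytoplasmic side. The SRP RNA gene ENSMUSG00000099250 had log2 ratios of −4.55 and −4.85 in the miR-29b and scrambled inputs, with 88 and 105 nuclear counts against 2379 and 3971 cytoplasmic ones. Rpph1 also had more signal in the cytoplasmic libraries, with log2 ratios of −2.34 and −2.62, as did Rprl3 at −2.07 and −2.20. The RNase P and the RNase MRP RNA, whose enzymes are related, thus had ratios on opposite sides in both inputs. Carryover between the fractions was not tested, so these ratios do not settle where the RNAs lie in the cell. The 9 miRNA genes had median log2 ratios of −1.84 and −0.84, beside 0.01 and 0.01 over all genes, and Mir6236 had −3.36 and −1.28.

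In the cytoplasmic libraries, Rn7sk, Scarna10 and Rpph1 were at higher levels in both pulldowns than in their inputs. So were other misc_RNA genes such as Rmrp (log2 3.51 with miR-29b and 1.40 with the scrambled mimic) and Gm24447 (5.71 and 2.71). Rn7sk was at 5597 CPM in the cytoplasmic miR-29b pulldown, against 116 CPM in its input, and at 1851 CPM in the cytoplasmic scrambled pulldown, against 152 CPM in its input. Scarna10 was at 188 CPM, against 0.774 CPM, with miR-29b and at 7.48 CPM, against 1.06 CPM, with the scrambled mimic. Rpph1, on the cytoplasmic side, was at 2968 CPM, against 128 CPM, with miR-29b and at 892 CPM, against 147 CPM, with the scrambled mimic. The nuclear-side gene ENSMUSG00000098749, described as a conserved region of HOTAIRM1, was low in both, with 25 counts in the cytoplasmic miR-29b pulldown and 23 in its input. In the nucleus Rn7sk was at 4905 CPM in the miR-29b pulldown against 794 in its input, and at 8846 CPM in the scrambled pulldown against 722. The nuclear over cytoplasmic log2 ratio of Scarna10 in the pulldown was 0.68 with miR-29b, against 5.65 with the scrambled mimic, and that of Rn7sk was −0.19 against 2.26. Other misc_RNA genes were also lower with miR-29b, among them Rmrp (2.34 against 5.05), Gm24447 (−0.19 against 3.25), Rpph1 (−4.32 against −2.43) and Rprl3 (−4.47 against −2.12). ENSMUSG00000099021 was level (−4.22 against −4.20). The median of the 13 misc_RNA genes was −4.22 against −2.12, beside 0.08 against 0.12 over all genes. Malat1, also a nuclear RNA, was above its cytoplasmic input in both cytoplasmic pulldowns (log2 4.47 with miR-29b and 5.18 with the scrambled mimic), so carryover between fractions and recovery by the pulldown cannot be told apart. Rpph1 and the SRP RNA gene lay on the cytoplasmic side in the pulldowns too (log2 −4.32 and −5.14 with miR-29b, −2.43 and −4.37 with the scrambled mimic). Values lower with miR-29b in whole cells were not all lower here. Cytoplasmic pulldown over input was log2 2.53 with miR-29b and 2.12 with the scrambled mimic for ENSMUSG00000099250. It was 1.92 and 1.82 for ENSMUSG00000099021, 2.23 and 1.48 for Gm22179 and 2.81 and 2.87 for Gm24514. Nuclear values in that order were 1.94 and 2.60, 1.46 and 1.33, 2.26 and 2.80, and 0.62 and 1.53. Mir6236 was lower with miR-29b in the cytoplasm (−1.64 and 0.49) but not in the nucleus (0.44 and −0.54).

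**Figure D5:**
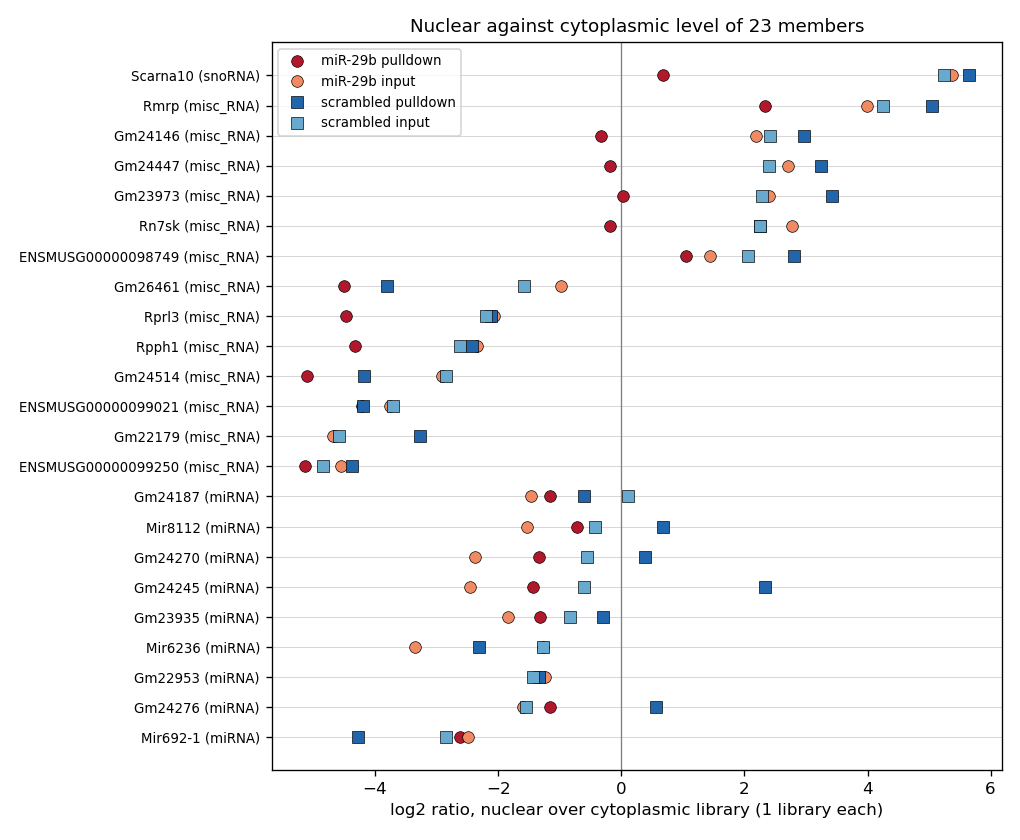
Log2 ratio of the nuclear over the cytoplasmic level of the 23 members listed in the fractions, for both pulldowns and both inputs, with 1 library per fraction and no error bars. Scarna10, Rmrp and Rn7sk lie on the nuclear side in the inputs and the SRP RNA and RNase P genes on the cytoplasmic side. The miR-29b pulldown (dark red) lies below the other 3 for Scarna10 and for every misc_RNA gene shown except Gm22179. For ENSMUSG00000099021 it is nearly level with the scrambled pulldown (−4.22 against −4.20).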

How the data were processed

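RNA from 24 libraries of NIH3T3 cells was analysed. Per the labels' protocols, 5 ng of RNA per library (6 ng for miR-29b input replicate 4) entered the TotalScript kit, primed with oligo-dT and RH primers in equal parts. The submitters' processing notes name mm10 and STAR 2.3.0, while the counting tool, its strandedness and how genes were selected for listing are not stated in the sources used. The deposited whole-cell and fraction tables hold counts per gene, and the authors also deposited CPM values, per the file headers, used here only to recover their library totals. The authors' deposited enrichment scores, of unstated scale, served only to see which replicates their lysed mean covers, and 8 columns of normalized fraction values, of unstated unit, were not used. Of 14052 lines, 518 repeats were dropped. The nuclear and cytoplasmic files held the same table (0 differing bytes), which has the columns of both fractions. Symbols or miRNA names of 41 of 79 members matched RefSeq GRCm38.p6, which gave coordinates, hosts and sequences.

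Counts of 16 whole-cell libraries were tested in edgeR 4.0.16 (R 4.3.3) with filterByExpr (12915 genes tested, 619 not, 11 of them members), TMM factors and 1 quasi-likelihood model of group means, two-sided, with Benjamini-Hochberg adjustment over all genes at 0.05. The common dispersion was 0.106. Tried besides were DESeq2 1.42.0, upper-quartile or RLE factors, no filter, the authors' totals, a replicate block, replicates 1 to 3 alone and each library left out. Members, lists and tests were chosen with earlier results of these data known. Named members were the 5 highest by mean CPM per biotype, the 3 smallest p per biotype, direction and comparison among those past the threshold, 10 listed of 27 fixed names, and hosts, 31 members in all; Snora23, Snora24, Snora33, Snora78, Scarna10, Gm25911, Mir8112 and ENSMUSG00000098749 fall outside this rule and were named after their values were seen.

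Same-numbered libraries deviated together (correlations over 0.1 for all 4 pairs) between miR-29b pulldown and input (0.379 to 0.70) and between inputs (0.506 to 0.717), with the numbers from the titles; without replicate 4 the lowest values were 0.094 and 0.114. Fractions were described over the 11568 genes listed with a sum of at least 20 counts over 8 libraries. The fits were tested on simulated data.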

Additional observations from a re-analysis of the deposited data

Results flagged for a closer look

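Of 88 groups of 4 libraries examined over the 18 members given by library and the 4 biotype sums, 30 had 1 library far from the other 3. Chance flags about 1 in 20 groups of independent, normally spread values. The groups here share libraries, and the sums contain the members, so that rate cannot be set against the count of 30. In 26 of the 30 the distant library was replicate 4. In the miR-29b pulldown it was at 5.13 CPM for Snora24, 9.39 for Scarna13, 13.02 for Gm25177, 1268 for Rn7sk and 515 for Rpph1, and the sums were 23.1 CPM for snRNA and 2168 CPM for misc_RNA genes. In the miR-29b input it was at 5.02 CPM for Snora73b, 1.45 for Snora24, 1.24 for Scarna2, 2.19 for Scarna13, 9.00 for Snord104, 3.01 for Gm25177, 0.497 for Gm25939, 1091 for Rn7sk, 68.0 for Rmrp and 7.98 for Vaultrc5. The sums there were 41.7 CPM for snoRNA, 6.56 for snRNA and 2352 for misc_RNA genes. In the scrambled input it was at 1.11 CPM for Snora73b, 0.771 for Scarna2, 3.82 for Snord104 and 904 for Rn7sk, with sums of 16.5 CPM for snoRNA and 1971 CPM for misc_RNA genes. The other 4 were replicate 1 of the scrambled pulldown, the library with the fewest listed counts, at 22.0 CPM for Rnu3a, 14.3 for Gm25939, 80.7 for Vaultrc5 and 16.9 for Mir692-1.

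For 10 members the pulldown over input change differed between the mimics in the edgeR test of that difference. The log2 differences, miR-29b minus scrambled, were −2.02 for Gm24187, −4.48 for Gm22953, −1.95 for Mir6236, −2.35 for Gm24270, −2.76 for Gm23935, −2.37 for Gm22179, −2.37 for ENSMUSG00000099250, −2.88 for Gm25911, −2.07 for ENSMUSG00000099021 and −2.32 for Gm24514.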

How the results depend on the processing

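Counts of members past the threshold moved with the libraries used and with a replicate block. With replicates 1 to 3 alone, the mimic-specific counts were 1 higher and 20 lower, the miR-29b against scrambled pulldown had 47 lower, the miR-29b pulldown against its input had 21 higher and the scrambled pulldown against its input 46 higher. The predicted gene Gm23849 turned over there, with a miR-29b against scrambled pulldown log2 change of −1.29 (edgeR adjusted p = 0.0364) beside 0.13 over all 4 replicates. Leaving out 1 library at a time gave mimic-specific counts of 0 to 1 higher and 5 to 21 lower, miR-29b against scrambled pulldown counts of 1 to 2 higher and 13 to 28 lower, miR-29b pulldown against input counts of 0 to 28 higher and 2 to 6 lower, and scrambled pulldown against input counts of 14 to 37 higher and 0 to 1 lower. With the replicate number as a block, 30 members were lower by the mimic-specific measure, 35 were lower between the pulldowns, 15 were higher and 9 lower in the miR-29b pulldown against its input, and 49 were higher in the scrambled pulldown; the numbers shared by the scrambled libraries and by the pulldowns did not pass the pairing check. The authors' library totals gave 12 higher and 2 lower for the miR-29b pulldown against its input and put the median log2 change of all genes at 0.27 there, 0.23 between the pulldowns and 0.21 by the mimic-specific measure. The cause of these shifts was not tested. Under RLE factors, upper-quartile factors, DESeq2 and no filter, each count stayed within 1.5 times of its value. Of 3560 values of single members and alternatives, 3255 kept their direction and side of the threshold, 156 were no longer past it, 148 were newly past it and 1 turned over.

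For the fractions, dropping the TMM factors moved the medians of all genes to 0.99, 0.70, 0.82 and 0.56 (log2 nuclear over cytoplasmic, in the order miR-29b pulldown, miR-29b input, scrambled pulldown, scrambled input), and changes are best read against these. In that order Scarna10 was at 1.65 in the miR-29b pulldown and 6.36 in the scrambled pulldown, the misc_RNA medians were −3.30, −0.72, −1.38 and −1.32, and the miRNA medians −0.35, −1.30, 0.45 and −0.26, the third of which is −0.30 with the factors. With a prior count of 1 the misc_RNA medians were −4.32, −1.81 and −2.28 in the miR-29b pulldown, the miR-29b input and the scrambled input, and the miRNA medians −1.34 and −2.38 in the miR-29b pulldown and input. With at least 100 counts the miRNA median in the miR-29b input was −2.38. A low level in the inputs limits the snoRNA and snRNA genes most, since 32 of 33 tested would not have passed the filter in the inputs alone.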
